A study of Mus musculus with 4 samples.

Results

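Transcript levels of 3T3 cells treated with recombinant LTα1β2 for 48 h were compared with those of control 3T3 cells at 48 h, gene by gene. The comparison is made of 2 of the series' 4 libraries, 1 on each side, and the control and treated libraries of 24 h are given beside them as values. The labels call the cells a pre-osteoblast line of the mouse and the untreated arm NC or control. They do not say what the control cells received, at what dose LTα1β2 was given, or which of the lines named 3T3 was used. The name is also that of embryonic fibroblast lines. All 4 groups are the same line, and no other agent, genotype or sort is named. The deposited table lists 12208 genes. Of these 12160 had a mean of at least 1 CPM (read counts scaled to a common library size) over the 4 libraries and were compared, and 48 lay below that limit. Miga1 was just inside it with a mean of 1.0014 CPM, and Dok3 just outside it with 0.99968 CPM. The deposited table itself has a floor, since the lowest value of each library was 0.734 to 0.793 CPM (9 to 12 reads). Genes with fewer or no reads in any 1 library are not listed and could not be compared, whether higher or lower. With 1 library a side there is no test of treatment: genes are described by size, and a difference between libraries cannot be told apart from one between cultures.

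LTα1β2 is a membrane-bound trimer of the TNF superfamily made by lymphocytes, and its receptor on stromal cells is the lymphotoxin β receptor. Without ligand, TRAF3, TRAF2 and the cIAP ubiquitin ligases keep the kinase NIK at a low level. Receptor engagement frees NIK, which drives cleavage of p100 to p52 and entry of p52 with RelB into the nucleus, while a faster arm acts through IκB degradation and RelA. In lymphoid stroma the pathway is known for chemokines and adhesion molecules. Interferons, which cells make when nucleic acid sensors are engaged, act through STAT and IRF proteins on a separate set of antiviral genes. In the osteoblast lineage, RUNX2 and SP7 direct cells towards secretion of a collagen-rich matrix, and Wnt, BMP, Hedgehog, FGF and IGF signals bear on that course.

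Sequences just before the start sites of the higher genes are shown first, since the sites that NF-κB and the interferon-activated STAT and IRF complexes bind are short and can be read by eye. They come from RefSeq (GRCm38.p6), run 5′ to 3′ on the gene's strand, and end before the annotated start. Genes were taken in order of their 48 h fold from the 161 genes (1.32% of those tested) that were at least 2-fold above genes of like transcript length, a measure set out below, and whose 250 bases upstream hold a match. A capital run longer than the motif is a set of overlapping matches. Capitals in the first set mark the interferon-stimulated response element, searched on both strands as GAAA, any 2 bases and GAAA.
Ifit3, chr19:34583353-34583436, plus strand: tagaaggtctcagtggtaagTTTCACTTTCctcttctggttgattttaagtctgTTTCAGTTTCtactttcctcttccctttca
Ifit1, chr19:34640765-34640833, plus strand: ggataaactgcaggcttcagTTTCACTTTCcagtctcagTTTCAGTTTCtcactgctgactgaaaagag
Gbp3, chr3:142559979-142560034, plus strand: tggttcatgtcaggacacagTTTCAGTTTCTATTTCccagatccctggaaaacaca
Cxcl10, chr5:92349073-92349122, minus strand: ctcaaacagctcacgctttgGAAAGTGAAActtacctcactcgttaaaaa
Gbp5, chr3:142496749-142496798, plus strand: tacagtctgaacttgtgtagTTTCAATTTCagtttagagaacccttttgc
The matches of Ifit3 began 156 and 122 bases before the start, and those of Ifit1 104 and 85. The 2 matches of Gbp3 overlap. Ifit3b, a close copy of Ifit3, has the same 84 bases before its start, and the counting of reads from such copies is not described in the sources used here. The second set shows κB sites, searched on both strands as GGG, any 2 bases, TT, any base and CC.
Serpina3g, chr12:104236042-104236091, plus strand: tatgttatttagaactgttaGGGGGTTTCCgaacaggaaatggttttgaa
Ccl9, chr11:83578642-83578691, minus strand: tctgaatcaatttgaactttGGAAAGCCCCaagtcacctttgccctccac
Casp4, chr9:5308736-5308848, plus strand: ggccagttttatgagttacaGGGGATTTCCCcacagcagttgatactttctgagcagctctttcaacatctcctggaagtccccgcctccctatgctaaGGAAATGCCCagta
Tnfrsf9, chr4:150927936-150927986, plus strand: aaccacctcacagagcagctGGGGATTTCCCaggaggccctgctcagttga
Cxcl10, chr5:92348963-92349012, minus strand: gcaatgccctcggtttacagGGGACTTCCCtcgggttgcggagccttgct
Cxcl10 is in both sets. Its κB match began 103 bases and its interferon element 213 bases before the start. Ifit1 also held a κB match, 159 bases before its start.

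Of the tested gene symbols, 9238 of 12159 had a RefSeq promoter entry of 300 bases (250 before the start and 50 after it). The interferon element was in an entry of 347 of those genes (3.76%) and in 3.44% of all 32851 entries. Among genes at least 2-fold higher than genes of like length it was in 31 of 122 (25.4%), and among the 66 (0.543%) at least 2-fold lower in 2 of the 37 with an entry (5.41%). By group it was in 11 of 13 guanylate-binding protein, IRG and schlafen genes, 13 of 31 antiviral effectors and 0 of 9 canonical NF-κB genes. The κB motif was in 585 of the 9238 genes (6.33%) and in 4.79% of all entries. It was in 14 of the 122 higher genes (11.5%) and in 3 of the 37 lower ones (8.11%). By group it was in 5 of 9 canonical NF-κB genes, 4 of 10 genes of the lymphotoxin receptor pathway and 1 of 31 antiviral effectors. The BCL2 family, a list near genes of like length, held it in 5 of 12. Another motif, the STAT site TTCNNNGAA (the same on both strands), was in 747 of the 9238 genes (8.09%), in 8.30% of all entries and in 19 of the 122 (15.6%). Matches of the κB motif and the interferon element overlapped in 3 of 11835 entries of tested genes, those of the κB motif and the STAT site in 7, and those of the interferon element and the STAT site in 11. A match describes letters in a window and was not tested as a site.

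The labelled cell type was checked against 12 pre-osteoblast markers, of which 10 were in the table. Col1a1 and Col1a2 were among the highest genes of every library, at 14201 and 17106 CPM in control at 48 h, and Runx2, Sp7, Spp1, Postn, Omd and Dmp1 were all present. Alpl and Ibsp are not analysed here. Of 8 fibroblast markers 6 were listed, with a summed level of 10289 CPM in control at 48 h, and of 6 smooth muscle and myoblast markers Des and Acta2, with 1044.3 CPM, nearly all of it Acta2. Of the lymphocyte, endothelial and epithelial marker lists, 6 genes each, 0 genes were among those listed in the table. Of 9 macrophage markers 4 were listed, Csf1r, Cd68, Cd14 and Lyz2. Their summed level was 72.1 and 83.8 CPM in control at 24 and 48 h and 67.9 and 98.2 CPM in treated cells, most of it Lyz2, and its part in the immune genes below was not tested. Fabp4 was the 1 of 6 adipocyte markers listed. Col2a1 was the 1 of 5 chondrocyte markers listed, at 112.2 and 65.2 CPM in control at 24 and 48 h and 80.5 and 39.8 CPM in treated cells.

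The treated 48 h library had the fewest reads of the 4, 11355974 against 13097396 to 15995777 (the reads summed from the table), and the shortest read-weighted median transcript, 3127 bases against 3588 to 3659. At 48 h the log2 fold, the difference of log2(CPM + 1) between treated and control, declined with transcript length (Spearman's rho = -0.44 across 12160 genes, which share the same pair of libraries). At 24 h it did not (rho = -0.02). In the tenth of genes with the shortest transcripts the 48 h median was 0.35, with 103 genes at least 2-fold higher and 2 lower. In the tenth with the longest it was -0.34, with 5 higher and 30 lower. Each gene was therefore also set against genes of like length, by subtracting the median log2 fold of its neighbours in transcript length, 250 genes to either side. The result is called the length-adjusted log2 fold. The length-adjusted values still had a weak relation to base composition (rho = -0.27 with GC content, in the same 12160 genes), so the group medians were also taken with that removed. This moved 9 of the 75 lists across the limits of 0.25 and -0.25 defined below. The respiratory chain (0.24), mitochondrial ribosome (0.24), contractile genes (-0.22), cholesterol synthesis (-0.21) and laminins and integrins (-0.22) came to lie within them. The interferon machinery (0.28), BCL2 family (0.35), Sm and LSm proteins (0.26) and mitochondrially encoded genes (-0.39) came to lie outside them. What made this library differ in length was not tested.

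**Figure D1:**
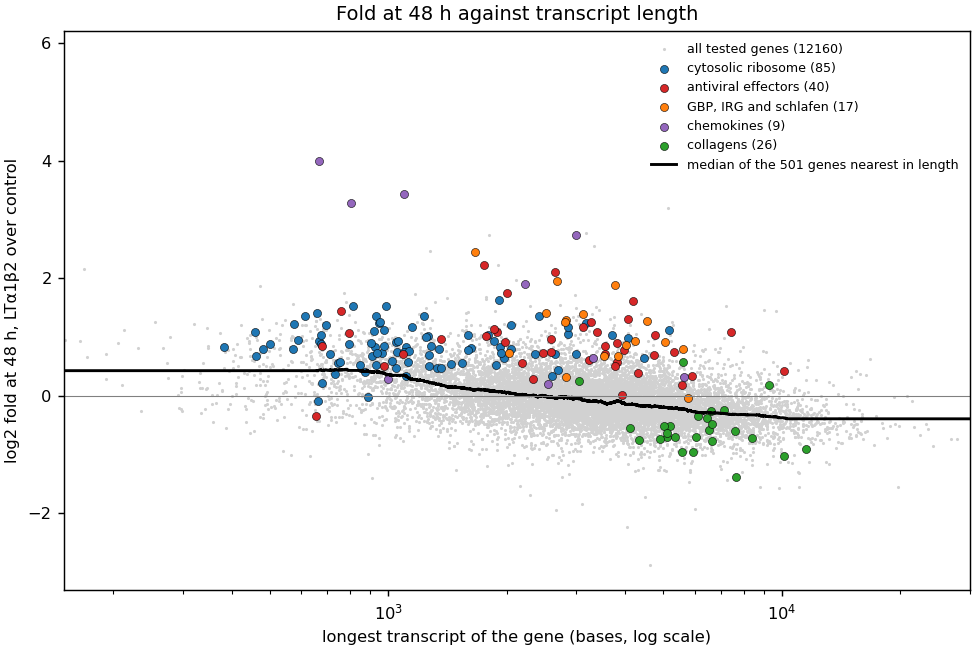
Each point is a gene, with the length of its longest transcript (bases, log scale) on the horizontal axis and its log2 fold at 48 h, LTα1β2 over control, on the vertical axis. The black line is the running median of genes of like length, which runs from above 0 for short transcripts to below 0 for long ones. Ribosomal protein genes lie at the short end above the line, collagens at the long end mostly below it, and most chemokine, antiviral and GTPase genes above it at every length.

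In the 48 h pair 226 genes (1.86%) were higher in treated cells by 2-fold or more and 87 (0.715%) were lower by as much. Against genes of like length 161 (1.32%) were higher and 66 (0.543%) lower by the same margin. Of the 226 genes, 124 also passed against genes of like length and 102 did not. Of the 87, 43 did and 44 did not. The 215 tested genes of 15 immune lists held 48 of the 226 and 50 of the 161. The 389 tested genes of 8 lists of mostly small subunits, ribosome and respiratory chain among them, held 54 of the 226 and 22 of the 161. The 348 tested genes of 18 matrix, differentiation and signalling lists held 30 of the 87 lower genes and 17 of the 66. Of 75 gene lists with at least 3 tested members, 16 had a length-adjusted median of 0.25 or more, 10 had one of -0.25 or less and 49 lay between. The median over all genes was -0.09 before the adjustment.

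The receptor pathway is given first, from the surface inwards. Ltbr, the receptor gene, was at 156 CPM (control) and 151 CPM (LTα1β2) at 24 h, then at 150.0 CPM (control) and 129.8 CPM (LTα1β2) at 48 h. The treated 48 h value was the lowest of the 4, with a ratio to its control of 0.866, with a 95% counting interval of 0.809 to 0.927. These intervals are exact and cover counting error only. Below, where a pair of values is given for control or for treated cells, the 24 h library comes first. Of the 12 genes of the lymphotoxin receptor pathway, all tested, 9 lay above genes of like length and Ltbr, Traf5 and Chuk below, with a median log2 fold of 0.39 and a length-adjusted median of 0.61. Genes named only as the exceptions to a count, here and below, were picked after their values were seen. Birc2, which encodes the ubiquitin ligase cIAP1, was the 1 member past 2-fold. It was at 26.5 and 24.4 CPM in the controls and 49.8 and 53.5 CPM in the treated libraries. Birc3, the gene of cIAP2, was at 9.57 and 13.3 CPM in control against 26.8 and 26.2 CPM with LTα1β2. Map3k14, the gene of NIK, was at 30.9 and 19.6 CPM without LTα1β2 and 52.1 and 32.9 CPM with it. Its levels were lower at 48 h than at 24 h in both arms. Nfkb2, the p100 gene, was at 142 and 144 CPM in the controls and 319.8 and 269.9 CPM in the treated libraries. Relb, whose product pairs with p52, was at 26.6 and 23.7 CPM in control against 41.3 and 37.5 CPM with LTα1β2. In all 5 of these genes the treated library was the higher one at both times. In Nfkb2, Relb and Map3k14 the treated level was higher at 24 h than at 48 h.

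The canonical NF-κB genes past 2-fold encode inhibitors. Of 11 tested genes (13 listed) 2, Nfkbia and Nfkbie, were at least 2-fold higher and 0 lower. All but Rel lay above genes of like length, with a length-adjusted median of 0.51. Nfkbie, which encodes IκBε, was at 20.9 and 21.7 CPM without LTα1β2 and 80.1 and 62.5 CPM with it. Its 48 h difference was 2.88-fold, 95% counting interval 2.51 to 3.32. Nfkbia, the gene of IκBα, was at 45.7 and 50.5 CPM in the controls and 138 and 135 CPM in the treated libraries, nearly the same at both times. Tnfaip3, which encodes the deubiquitinating enzyme A20, was at 23.4 and 22.98 CPM in control against 46.8 and 37.5 CPM with LTα1β2. Nfkbib, the gene of IκBβ, was at 11.6 and 11.3 CPM without LTα1β2 and 13.9 and 17.8 CPM with it. The log2 fold as measured was smaller at 48 h than at 24 h in 10 of the 11 genes, all but Nfkbib. The median over all tested genes was also lower at 48 h, -0.09 against 0.02 at 24 h. The list's median was 0.22 at 48 h and 0.27 at 24 h as measured. Against genes of like length it was 0.51 and 0.25, so the order of the medians turned with the adjustment. As measured, most chemokines and antiviral genes had the larger log2 fold at 48 h, as follows.

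Chemokines were the group with the highest median. Of 9 tested genes (27 listed) 5, Ccl2, Ccl5, Ccl7, Ccl9 and Cxcl10, were at least 2-fold higher and 0 lower at 48 h. The length-adjusted median was 1.88, and 7 of the 9 had a larger log2 fold at 48 h than at 24 h. Ccl5, an attractant of T cells and monocytes, was at 10.9 and 9.01 CPM in the controls and 72.3 and 158 CPM in the treated libraries. Its transcript is short, 668 bases, and its log2 fold was 3.99 as measured and 3.55 against genes of like length. Ccl2, the monocyte attractant, was at 11.5 and 10.2 CPM in control against 79.4 and 121 CPM with LTα1β2. Ccl7, a close relative of Ccl2, was at 3.81 and 3.51 CPM without LTα1β2 and 26.02 and 42.97 CPM with it. Ccl9 was at 8.94 and 8.25 CPM in the controls and 34.03 and 60.2 CPM in the treated libraries. In all 4 genes the controls were near each other, both treated libraries lay above both of them, and the treated level was higher at 48 h than at 24 h. Cxcl10, an attractant of activated T cells whose promoter holds both motifs, was at 7.502 and 9.93 CPM in control against 24.2 and 39.8 CPM with LTα1β2.

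Cytokine and receptor genes outside the chemokines were higher by less. Of 7 tested inflammatory cytokine and acute-phase genes (22 listed) 0 passed 2-fold on the log2(CPM + 1) scale, while 7 of 7 lay above genes of like length, with a median of 0.52. Il15, which sustains natural killer and memory T cells, was at 5.001 and 4.89 CPM without LTα1β2 and 6.74 and 9.77 CPM with it. Lif, a cytokine that signals through gp130, was at 9.47 CPM in the 48 h control and 14.9 CPM in the 48 h treated library. Il34, a ligand of the macrophage colony-stimulating factor receptor, was at 5.42 CPM in the 48 h control and 10.7 CPM in the 48 h treated library. The treated library was the higher one in each. Among 14 tested cytokine receptor genes all but Il17rd lay above genes of like length, with a median of 0.49, and 2, Il1rl1 and Il13ra1, were past 2-fold. Il1rl1, the receptor of IL-33, was at 121 and 127 CPM in the controls and 259 and 291 CPM in the treated libraries. Il13ra1 and Il4ra, whose products form an IL-4 and IL-13 receptor, were both higher. Il13ra1 was at 79.96 and 75.9 CPM in control against 156 and 157 CPM with LTα1β2. Il4ra was at 19.9 and 23.8 CPM without LTα1β2 and 43.3 and 36.4 CPM with it. The treated level of Il13ra1 was alike at both times and that of Il4ra was lower at 48 h. In the complement list C3, its central component, was at 42.9 and 42.1 CPM in the controls and 325 and 393 CPM in the treated libraries. The other 5 tested complement genes had log2 folds from -0.30 for C1qtnf6 to 0.16 for C1s1.

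TNF receptor genes diverged. Of 13 tested members 2, Tnfrsf9 and Fas, were at least 2-fold higher, and 1, Tnfrsf19, was at least 2-fold lower. Against genes of like length 6 lay above and 7 below. Tnfrsf9, which encodes the costimulatory receptor 4-1BB, was at 4.94 and 3.74 CPM in control against 10.7 and 17.5 CPM with LTα1β2. Fas, the death receptor gene, was at 30.4 and 26.8 CPM without LTα1β2 and 52.8 and 63.2 CPM with it. Both treated libraries lay above both controls in these genes. Tnfrsf19, a receptor gene of mesenchymal and epithelial progenitors, was at 8.56 and 15.7 CPM in the controls and 3.603 and 2.55 CPM in the treated libraries. Its log2 fold at 48 h, -2.23, was lower than that of all other tested genes except Npnt, described below. Tnfrsf14, a receptor of LIGHT, was at 3.94 and 5.88 CPM in control against 5.47 and 4.14 CPM with LTα1β2. It lay on opposite sides of its control at the 2 times, and its ratio at 48 h was 0.704, with a 95% counting interval of 0.479 to 1.02.

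**Figure D2:**
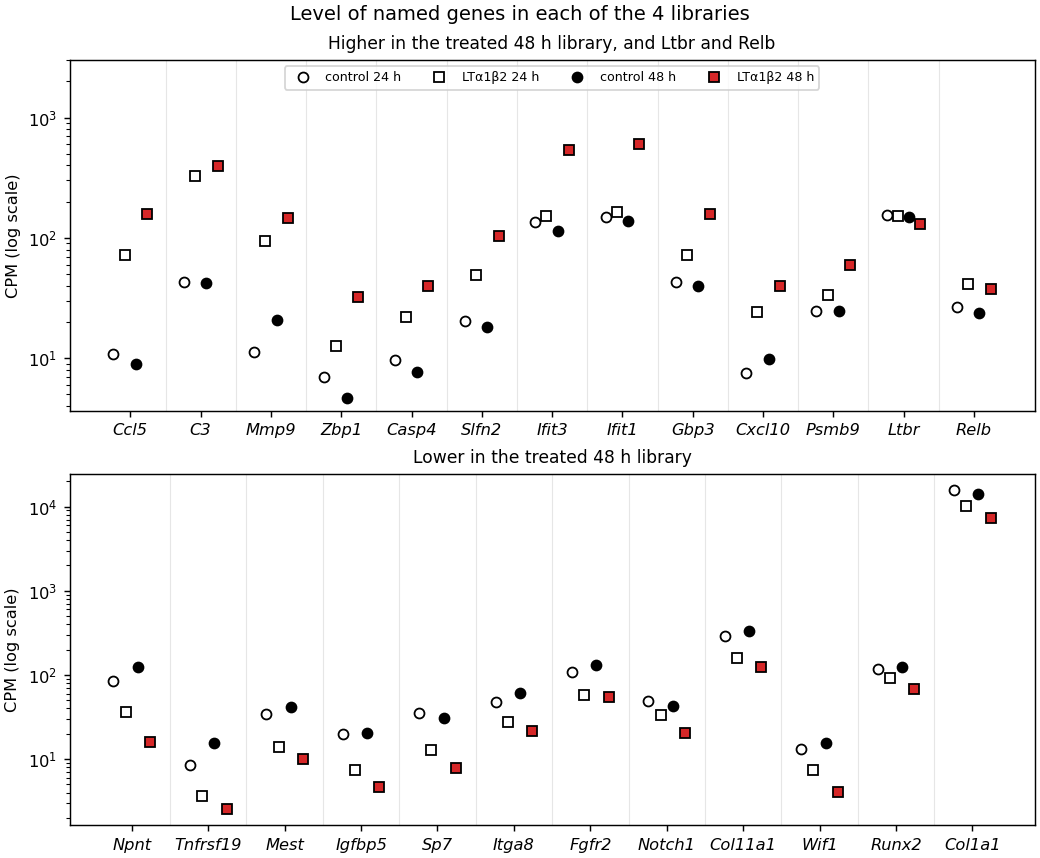
The vertical axis gives the level in CPM (log scale) of named genes in each of the 4 libraries, with circles for control, squares for LTα1β2, open symbols for 24 h and filled symbols for 48 h; each symbol is 1 library, so there is no error bar. Ltbr is nearly level across libraries, Ifit3 and Ifit1 stand apart in the treated 48 h library alone, and Npnt, Tnfrsf19 and Sp7 are lowest there.

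Antiviral effector genes were higher in the treated 48 h library with few exceptions. Of 40 tested genes (42 listed) 15 were at least 2-fold higher and 0 lower, and all but Ifitm2 lay above genes of like length. Their median log2 fold was 0.84 for the 48 h pair, 0.87 against genes of like length and 0.16 at 24 h, when 0 passed 2-fold. Ifit3, whose product works with that of Ifit1, a binder of foreign RNA, was at 134.3 and 113 CPM without LTα1β2 and 151 and 534 CPM with it. Ifit1 was at 148 and 139 CPM in the controls and 166 and 603 CPM in the treated libraries. In both genes 3 libraries lay close together and the treated 48 h library alone was high. Ifit3b, the near copy of Ifit3, was at 51.5 and 47.7 CPM in control against 54.3 and 163 CPM with LTα1β2. Rsad2, which encodes the antiviral enzyme viperin, was at 7.002 and 4.89 CPM without LTα1β2 and 9.68 and 17.1 CPM with it, a difference of 3.496-fold, 95% counting interval 2.62 to 4.71 at 48 h. The log2 fold was larger at 48 h than at 24 h in 39 of the 40. By family, the 6 IFIT genes had a 48 h median of 1.63, and all but Ifit2 passed 2-fold. The 7 OAS genes, whose products make the activator of RNase L, had one of 0.78, with Oas1a and Oasl2 past 2-fold. The 6 genes of the Trim5, Trim12 and Trim30 cluster, which holds retrovirus restriction factors, had a median of 0.96, with Trim5, Trim12a and Trim12c past 2-fold. These families hold close copies, whose reads can be shared.

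Genes of the interferon response machinery as a list lay near genes of like length. Of 22 tested interferon receptor, STAT and IRF genes 1, Irf7, passed 2-fold. All but Ifnar1, Stat5a and Socs2 lay above genes of like length, with a median of 0.19, below the limit of 0.25, or 0.28 with GC content also removed. Irf7, an amplifier of type I interferon output, was at 51.9 and 47.2 CPM in the controls and 54.3 and 102 CPM in the treated libraries. The treated 48 h library was high and the other 3 were close together. Irf1, a target of NF-κB and of interferon signals, was at 69.8 and 63.4 CPM in control against 117 and 118 CPM with LTα1β2. Ifngr2, a subunit of the interferon γ receptor, was at 72.8 and 70.2 CPM without LTα1β2 and 106 and 117 CPM with it. Both had a similar difference at 24 h and 48 h. Interferon genes themselves are not analysed here.

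The guanylate-binding proteins, immunity-related GTPases (IRG) and schlafens are interferon-inducible proteins that act on intracellular pathogens or on viral translation. Their 17 tested genes (20 listed) all lay above genes of like length. As measured 8 were at least 2-fold higher, and against genes of like length 12, with medians of 0.94 and 1.11. Slfn2, which in T cells is tied to quiescence, had the highest fold of the list, at 20.3 and 18.02 CPM in the controls and 48.8 and 103 CPM in the treated libraries. Gbp3 was at 43.4 and 39.7 CPM in control against 72.0 and 157 CPM with LTα1β2. Gbp5, a gene with few reads, was at 2.38 and 1.53 CPM without LTα1β2 and 6.21 and 8.28 CPM with it, a difference of 5.42-fold, 95% counting interval 3.32 to 9.28 at 48 h. In these 3 genes the treated 24 h library already lay above both controls. Iigp1 was at 84.8 and 87.04 CPM in the controls and 102 and 229.7 CPM in the treated libraries, with the treated 24 h library nearer to the controls. The median log2 fold of the 8 GBP genes went from 0.57 at 24 h to 1.10 at 48 h, and that of the 7 IRG genes from 0.21 to 1.25.

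Among nucleic acid sensors and inflammatory caspases, a few genes stood well above the rest. Zbp1, a sensor of Z-form nucleic acid that can start necroptosis, was at 6.94 and 4.66 CPM in control against 12.5 and 32.1 CPM with LTα1β2, a difference of 6.901-fold, 95% counting interval 5.25 to 9.21 at 48 h. Casp4, which encodes the mouse caspase-11 that binds cytosolic lipopolysaccharide, was at 9.63 and 7.71 CPM without LTα1β2 and 22.2 and 39.5 CPM with it, a difference of 5.13-fold, 95% counting interval 4.12 to 6.43. Casp12, of the same gene cluster, was at 22.6 and 21.1 CPM in the controls and 28.6 and 48.5 CPM in the treated libraries. In all 3 the treated 48 h library was highest and the treated 24 h library lay between it and the controls. They were the 3 genes past 2-fold among 16 tested caspase, necroptosis and pyroptosis genes, of which all but Casp2 and Casp9 lay above genes of like length. Of 19 tested sensors 2, Zbp1 and Ifi204, passed 2-fold, and the length-adjusted median was 0.35. Ifi204, of the PYHIN family of DNA-binding proteins, was at 29.8 and 33.6 CPM in control against 42.8 and 99.2 CPM with LTα1β2. Ifih1, the RNA sensor MDA5, was at 40.1 and 36.3 CPM without LTα1β2 and 44.4 and 61.6 CPM with it. The adaptors did not share this: Mavs, Tmem173 (STING), Myd88, Ticam1 and the kinase gene Tbk1 lay at or below genes of like length, from -0.41 for Ticam1 to -0.00 for Tbk1. The PYHIN family as a whole had a median log2 fold of 1.10, with 6 of 10 tested genes past 2-fold and 10 of 10 above genes of like length. It too is a cluster of close copies.

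Antigen presentation genes were higher, and within the proteasome the median of the inducible subunits lay above that of the constitutive ones. Of 16 tested MHC and peptide-loading genes 2, H2-T22 and Cd74, were at least 2-fold higher. All but H2-T24, H2-DMa and H2-DMb1 lay above genes of like length, with a median of 0.57. Cd74, the invariant chain, was at 2.501 and 2.44 CPM in the controls and 6.67 and 9.86 CPM in the treated libraries, low in every library. H2-T22, a non-classical class I gene, was at 167 and 163 CPM in control against 211 and 338 CPM with LTα1β2. H2-T23, which encodes the ligand of the NKG2A receptor, was at 13.9 and 18.2 CPM without LTα1β2 and 21.3 and 36.2 CPM with it. The treated 48 h library was the highest in each. The 6 class I heavy chain genes had a median log2 fold of 0.73. All 5 immunoproteasome genes were above genes of like length, 4 of them (all but Psme1) past 2-fold as measured, with a length-adjusted median of 1.06. Psmb10 was at 42.3 and 40.3 CPM in the controls and 86.1 and 124 CPM in the treated libraries. Psmb9 was at 24.5 and 24.7 CPM in control against 33.7 and 59.1 CPM with LTα1β2. Psmb8 was at 61.3 and 57.5 CPM without LTα1β2 and 81.5 and 127 CPM with it. These 3 encode the catalytic subunits that replace the constitutive ones. Psme1, which encodes a subunit of the PA28 activator, was at 119 and 108 CPM in the controls and 141 and 215 CPM in the treated libraries. The constitutive proteasome had a median log2 fold of 0.43, or 0.26 against genes of like length, with 2 of 34 genes, Psma3 and Psmd10, past 2-fold. Its length-adjusted median by tier was 0.51 for the 7 α subunits of the core, 0.33 for the 7 β subunits, 0.18 for the 14 non-ATPase and 0.09 for the 6 ATPase subunits of the regulatory particle. The length-adjusted median of the whole list moved across the limit of 0.25 with the settings tried, from 0.21 to 0.47.

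**Figure D3:**
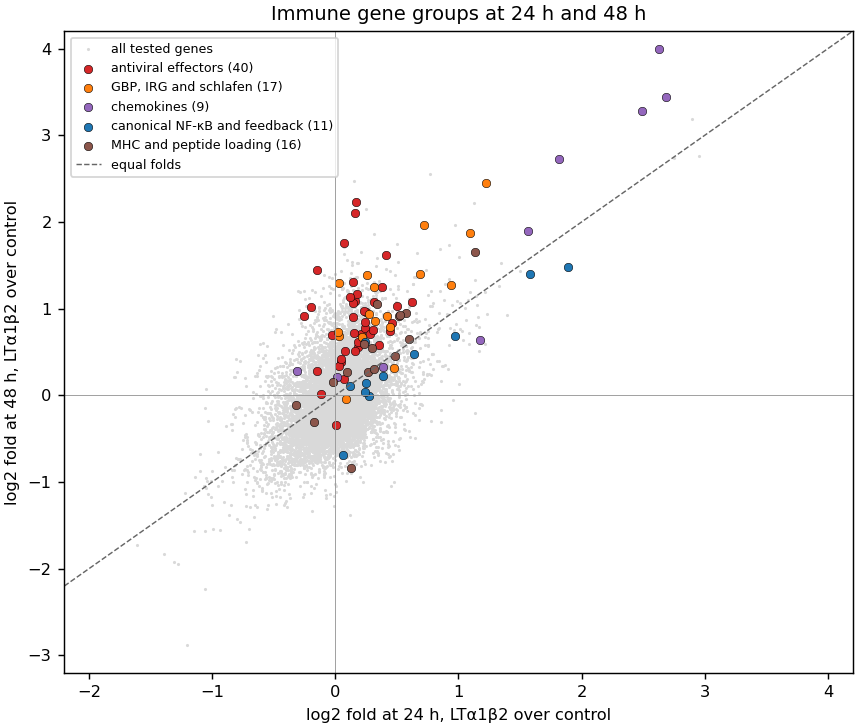
Each point is a gene, with its log2 fold of LTα1β2 over control at 24 h on the horizontal axis and at 48 h on the vertical axis; the 2 comparisons share no library, and the dashed line marks equal folds. Neither axis is length-adjusted. Antiviral effectors lie near 0 at 24 h and mostly above it at 48 h, the chemokines past 2-fold lie to the upper right above the line, and canonical NF-κB genes, all but Nfkbib, lie below the line.

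Ribosomal protein genes and nuclear genes of the respiratory chain were also higher, and most of their transcripts are short. For the chain the length-adjusted median lay at the limit used here. The 85 tested cytosolic ribosomal protein genes had a median log2 fold of 0.82, with 27 at least 2-fold higher and 0 lower. Their median transcript length was 1059 bases, and genes of like length had a median of 0.35. Against those the median was 0.57, with 12 genes past 2-fold and 79 of 85 above. The summed share of the 85 genes was 9.02% of CPM in the treated 48 h library, against 4.68 to 5.08% in the other 3. The length-adjusted median was 0.60 for 33 genes of the small subunit and 0.53 for 49 of the large one. Rps3 was at 631 and 664 CPM in control against 752 and 1567 CPM with LTα1β2. The 3183 bases used as its length are those of its longest annotated transcript, and the form expressed was not tested. Rpl30 was at 285 and 309 CPM without LTα1β2 and 316 and 791 CPM with it. Rpl22l1, a paralogue of Rpl22, was at 55.8 and 57.4 CPM in the controls and 58.8 and 179 CPM in the treated libraries. In these genes the treated 48 h library alone was high. Ribosomal protein pseudogenes, whose reads may come from the parent genes, had a median log2 fold of 0.70 over 27 tested, and 0.28 against genes of like length. This is the library with the shortest read-weighted transcripts, and the part of that in the remaining difference was not tested.

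Nuclear genes of the respiratory chain had a median log2 fold of 0.56 over 76 genes, with 12 past 2-fold. Genes of like length had 0.35, and the length-adjusted median was 0.25, at the limit used here. By complex it was 0.28 in complex I (37 genes), 0.14 in complex III (9 genes), 0.26 in complex IV (11 genes) and 0.25 in the ATP synthase (18 genes). The 12 tested chain genes of the mitochondrial genome did not share this. Their median log2 fold was 0.08, or -0.17 against genes of like length and -0.39 with GC content also removed. Of these 12 genes 9 lay below genes of like length and 3 above. Cox6c, of complex IV, was at 127 and 131 CPM in control against 125 and 336 CPM with LTα1β2. Usmg5, a small subunit of the ATP synthase, was at 61.9 and 71.6 CPM without LTα1β2 and 68.0 and 211 CPM with it. Mitochondrial ribosomal proteins (0.26, 77 genes) and the import machinery (0.27, 22 genes) had similar length-adjusted medians. That of the mitochondrial ribosome was below the limit under 5 of 14 alternatives, down to 0.17, and that of the respiratory chain under 5, down to 0.18, while that of the import machinery stayed above it under all 14. Tomm7, of the outer membrane translocase, was at 63.95 and 68.4 CPM in the controls and 71.9 and 157 CPM in the treated libraries. In these 3 genes the 24 h pair lay close together. The 40 translation factors had a length-adjusted median of 0.20, with Eif3e and Eif3m of initiation factor eIF3 past 2-fold. Eif3e was at 390.5 CPM in the 48 h control and 896 CPM in the 48 h treated library. Eif3m was at 120.5 CPM in the 48 h control and 282 CPM in the 48 h treated library.

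**Figure D4:**
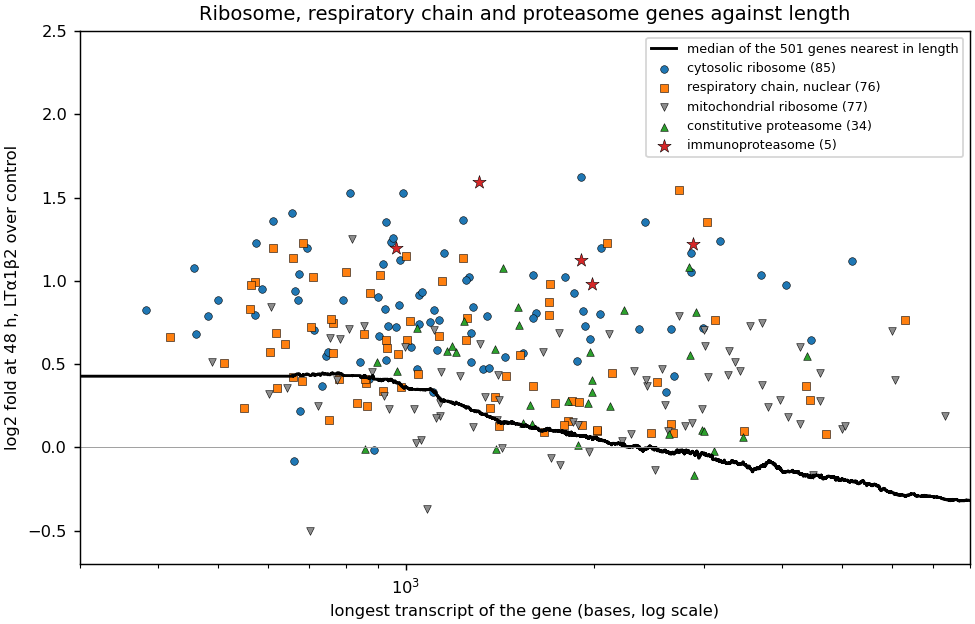
The length of the longest transcript (bases, log scale) is on the horizontal axis and the log2 fold at 48 h on the vertical axis; each symbol is a gene and the line is the running median of genes of like length. Cytosolic ribosomal protein genes lie above the line by a median of 0.57, and those of the respiratory chain and mitochondrial ribosome lie closer to it. Of the 5 immunoproteasome genes all but Psme1 lie above every constitutive proteasome gene. Psme1, at 0.98, lies below the constitutive genes Psma3 and Psmd10, both at 1.08.

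Among the lower genes, those of the osteoblast lineage are described first. The 12 tested osteoblast products (21 listed) had a length-adjusted median of -0.45, the lowest of the 75 lists. 1 of them, Omd, was at least 2-fold lower, and all but Spp1, Phex and Cdh11 lay below genes of like length. In bulk RNA, fewer cells of a type and less RNA per cell cannot be told apart. Omd, osteomodulin, was at 55.1 and 70.8 CPM in control against 25.8 and 33.6 CPM with LTα1β2. Dmp1, a matrix protein of mineralising cells, was at 9.002 and 13.1 CPM without LTα1β2 and 3.54 and 6.34 CPM with it, higher at 48 h than at 24 h in both arms. Postn, periostin, was at 1016 and 1152 CPM in the controls and 797 and 723 CPM in the treated libraries. In all 3 both treated libraries lay below both controls. Spp1, osteopontin, stood against the list, at 1234 and 1525 CPM in control against 1430.0 and 2209.8 CPM with LTα1β2, and was higher in treated cells at both times. Bglap and Bglap2, which encode osteocalcin, had few reads. The ratio at 48 h was 0.9498, with a 95% counting interval of 0.433 to 2.05 for Bglap and 0.726, with a 95% counting interval of 0.458 to 1.14 for Bglap2. The 10 pre-osteoblast markers together summed to 34561 and 34230 CPM in control at 24 and 48 h and to 24445 and 20921 CPM in treated cells, most of it from Col1a1 and Col1a2. The 6 fibroblast markers were also lower in treated cells, at 10757 and 10289 CPM in control against 8541.4 and 6853.7 CPM with LTα1β2. So were Des and Acta2 together, at 1064.1 and 1044.3 CPM against 695.64 and 687.66 CPM, and the part of either list in the lower genes was not tested.

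Of the transcription factors of the lineage, Sp7 was the lowest. The 17 tested genes had a length-adjusted median of -0.24, just short of the limit, and 2, Sp7 and Mef2c, were at least 2-fold lower. Sp7, which acts after Runx2, was at 35.1 and 30.8 CPM without LTα1β2 and 12.8 and 7.93 CPM with it. Its 48 h ratio was 0.257, with a 95% counting interval of 0.202 to 0.324. Runx2 itself was at 116 and 126 CPM in the controls and 91.5 and 67.5 CPM in the treated libraries. Dlx5, a homeobox gene of the lineage, was at 59.3 and 63.4 CPM in control against 43.4 and 36.5 CPM with LTα1β2. Mef2c was at 11.8 and 13.4 CPM without LTα1β2 and 8.61 and 6.16 CPM with it. In these 4 genes both treated libraries lay below both controls, and the treated level was lower at 48 h than at 24 h. Runx1, Runx3, Dlx6 and Sox5 lay above genes of like length.

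Genes of the secreted matrix were lower as a group. Of 26 tested collagen genes 23 had a log2 fold below 0 and 21 lay below genes of like length. Over all tested genes 40.7% had a 48 h log2 fold above 0. Collagen transcripts are long (median 6083.5 bases), and the median log2 fold of -0.61 became -0.40 against genes of like length and -0.29 with GC content also removed. Col11a1, of cartilage and early bone fibrils, was at 289 and 328 CPM in the controls and 158 and 125 CPM in the treated libraries. Col1a1 was at 15684 and 14201 CPM in control against 10034 and 7356 CPM with LTα1β2. Col3a1 was at 2269.9 and 2682 CPM without LTα1β2 and 1579 and 1382 CPM with it. In all 3 the treated 48 h library was the lowest. Col18a1, a basement membrane collagen with few reads, was higher, at 2.67 CPM in the 48 h control and 4.49 CPM in the 48 h treated library. Of 23 tested elastic fibre and glycoprotein genes 6 were at least 2-fold lower, and 4 of these, Npnt, Fbn2, Thbs1 and Nid2, were also against genes of like length. Npnt, nephronectin, had the lowest log2 fold of all genes, -2.88, and was at 84.6 and 122.7 CPM in the controls and 36.1 and 15.9 CPM in the treated libraries. Fbn2, the fibrillin of developing tissue, was at 115 and 124 CPM in control against 59.7 and 41.5 CPM with LTα1β2. Thbs1, thrombospondin, was at 600.1 and 589.7 CPM without LTα1β2 and 300.1 and 245 CPM with it. Again the treated 48 h library was the lowest of 4 in each. The 9 small leucine-rich proteoglycans, which coat collagen fibrils, had a length-adjusted median of -0.35, and all but Podnl1 lay below genes of like length. Aspn, asporin, was at 587 and 728 CPM in the controls and 365 and 457 CPM in the treated libraries. Bgn, biglycan, was at 4946 and 4727 CPM in control against 4394 and 3412 CPM with LTα1β2. Enzymes that modify collagen had a median of -0.24 over 26 genes, all but Ppib and Bmp1 below genes of like length.

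Integrins, the receptors for these matrix proteins, were lower in part. Of 12 α subunit genes 4, Itga1, Itga8, Itga9 and Itga11, were at least 2-fold lower, and of 6 β subunit genes 1, Itgb8. Itga8, whose product pairs with β1 to bind nephronectin, was at 48.1 and 61.1 CPM without LTα1β2 and 27.8 and 21.6 CPM with it. It was the 1 integrin gene that stayed 2-fold lower against genes of like length, with -1.21. Itga9 was at 13.1 and 16.2 CPM in the controls and 9.68 and 6.25 CPM in the treated libraries. Itga2, a collagen receptor subunit, had few reads and was higher in treated cells at both times, at 0.7502 and 0.8399 CPM in control against 1.601 and 2.64 CPM with LTα1β2. Its 48 h difference was 3.15-fold, 95% counting interval 1.53 to 6.96. Both control values were near the lowest listed in those libraries, 0.750 and 0.764 CPM. Itga2 thus passed the filter of 1 CPM only through the treated libraries, where it is high, and no weight is placed on this fold. The length-adjusted median of the 22 laminin and integrin genes, -0.27, was -0.22 with GC content also removed and so short of the limit.

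Wnt genes had lower medians at every tier. Of 29 tested ligand, receptor and antagonist genes all but Fzd8, Rspo2 and Wnt5a lay below genes of like length, with a median of -0.43. By tier the length-adjusted median was -0.50 for 6 ligands, -0.40 for 12 Frizzled and co-receptor genes and -0.64 for 6 antagonists and feedback genes. Wif1, a secreted inhibitor that binds Wnt, was at 13.0 and 15.3 CPM without LTα1β2 and 7.47 and 4.05 CPM with it. Its 48 h ratio was 0.264, with a 95% counting interval of 0.187 to 0.365. Sfrp2, another secreted inhibitor, was at 438 and 453 CPM in the controls and 261 and 249 CPM in the treated libraries. Wnt10b, a ligand that favours bone formation, was at 41.2 and 40.2 CPM in control against 26.4 and 18.9 CPM with LTα1β2. Both treated libraries lay below both controls in these 3. Of the Hedgehog pathway 6 of 8 tested genes, all but Smo and Sufu, lay below genes of like length, with a median of -0.35. Ptch1, the receptor and itself a target of the pathway, was at 27.8 and 28.2 CPM without LTα1β2 and 18.5 and 12.3 CPM with it. The co-receptor gene Boc was at 58.8 CPM in the 48 h control and 28.97 CPM in the 48 h treated library.

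Other growth factor and cell contact pathways had single low genes within lists that as a whole lay near genes of like length. In the FGF, PDGF, VEGF, EGF and HGF list (29 tested, length-adjusted median -0.12), the FGF receptors lay lower, with 4 of 4 tested below genes of like length and a median of -0.85. Fgfr2 was at 109.7 and 129.8 CPM in the controls and 58.3 and 54.7 CPM in the treated libraries. Fgfr3, a brake on growing bone, was at 24.9 and 24.97 CPM in control against 14.7 and 9.69 CPM with LTα1β2. In both the 48 h treated level was below the control by more than 2-fold. The BMP list (22 tested) had a median of -0.14. Bmp4 was at 121 and 108 CPM without LTα1β2 and 58.3 and 48.3 CPM with it. Nog, which encodes the BMP antagonist noggin, was at 4.94 and 3.44 CPM in the controls and 2.14 and 1.23 CPM in the treated libraries. In the Notch list (15 tested, median -0.11) all 3 tested receptors lay below genes of like length, with a median of -0.64. Notch1 was at 49.6 and 43.2 CPM in control against 33.5 and 20.7 CPM with LTα1β2. Hes1, a target of the pathway, was at 9.06 and 9.54 CPM without LTα1β2 and 5.07 and 4.84 CPM with it. Dtx4, a ubiquitin ligase of the pathway, was higher, at 8.13 and 8.47 CPM in the controls and 19.2 and 19.9 CPM in the treated libraries. The IGF list (13 tested) had a median of -0.13, and 3 genes, Igfbp5, Pappa and Irs1, were at least 2-fold lower as measured. Igfbp5, an IGF-binding protein of bone, was at 19.7 and 20.5 CPM in control against 7.34 and 4.67 CPM with LTα1β2. Irs1, the docking protein of the receptor, was at 294 and 280.2 CPM without LTα1β2 and 210.1 and 125 CPM with it. Pappa, a protease gene that acts on IGF-binding proteins, was at 18.7 CPM in the 48 h control and 6.96 CPM in the 48 h treated library. The log2 folds of Pappa and Irs1, -1.31 and -1.16, became -0.92 and -0.81 against genes of like length, and that of Igfbp5 went from -1.93 to -1.65.

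Lipid synthesis and contractile genes were lower by small amounts. Of 16 tested fatty acid synthesis genes all but Acacb lay below genes of like length (median -0.32) and 0 were past 2-fold. Scd2, a desaturase, was at 1052 and 1463 CPM in the controls and 813 and 760.3 CPM in the treated libraries. Of 22 cholesterol synthesis genes 19 lay below (median -0.26), and 1, Fdps, was at least 2-fold lower. Fdps was at 6.44 and 8.704 CPM in control against 3.94 and 3.52 CPM with LTα1β2. Hsd17b7 was at 61.95 and 75.4 CPM without LTα1β2 and 40.2 and 38.2 CPM with it. In these 3 genes the control at 48 h was above that at 24 h. Against the 24 h control the cholesterol list had a length-adjusted median of 0.01 and the fatty acid list one of -0.17, so neither kept its place. Contractile genes and targets of YAP had a median of -0.28 over 24 genes, which fell short of the limit against the 24 h control (-0.23), with the principal transcript (-0.24) and with GC content removed (-0.22). Actg2, smooth muscle γ actin, was at 10.6 and 9.77 CPM in the controls and 6.47 and 5.72 CPM in the treated libraries. Myl9, a regulatory light chain of smooth muscle myosin, was at 110.1 and 112 CPM in control against 65.3 and 78.2 CPM with LTα1β2. Myl6, a non-muscle light chain, was at 1305 and 1282 CPM without LTα1β2 and 1170.2 and 2060.3 CPM with it, higher in treated cells at 48 h and lower at 24 h.

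**Figure D5:**
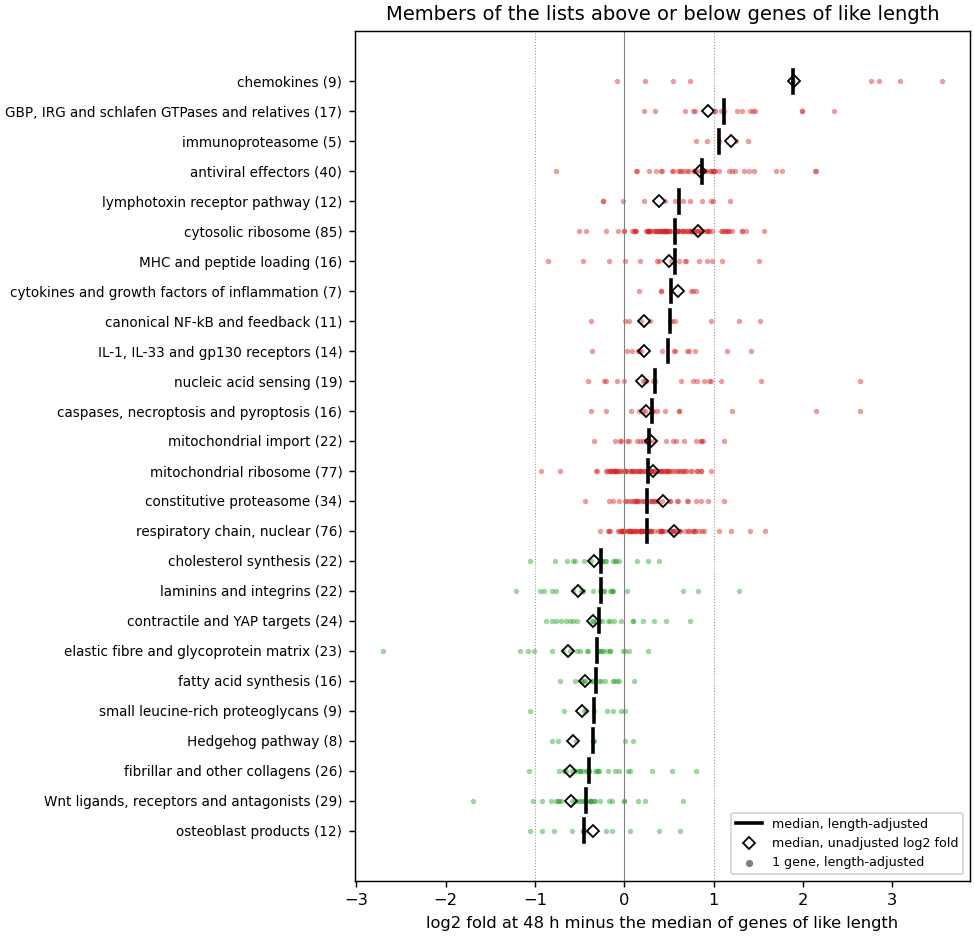
Each small point is 1 tested gene of a list, placed on the horizontal axis by its log2 fold at 48 h minus the median of genes of like length; the number of genes is in parentheses, the black bar is the list's median, and the open diamond is the median before the length adjustment. Lists with medians of 0.25 or more are in red and those of -0.25 or less in green. The bars of chemokines, GTPases, immunoproteasome and antiviral genes lie farthest to the right, and the diamonds of the cytosolic ribosome and respiratory chain lie to the right of their bars.

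Other groups were low as measured but close to genes of like length, or close to 0 by both measures. The 39 chromatin regulators with long transcripts had a median log2 fold of -0.45 and one of -0.10 against genes of like length. The 36 large cytoskeletal proteins had -0.48 and -0.11. Axon guidance ligands and receptors had -0.41 and -0.21 over 44 genes. Mitosis genes (28 tested, length-adjusted median -0.03) and DNA replication genes (36, 0.09) lay near genes of like length. So did those of glycolysis (17, 0.04), the TCA cycle (21, 0.08), the unfolded protein response (21, -0.03), autophagy (26, 0.04) and the lysosome (31, -0.04). Of these 7 lists the lysosome alone held a gene past 2-fold, Gla, an α-galactosidase gene, at 31.0 CPM in the 48 h control and 65.3 CPM in the 48 h treated library. The 365 tested zinc finger genes had a median of 0.03.

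Other named genes belong to no group above. Serpina3g, a protease inhibitor gene of a cluster of close copies, was at 7.06 and 9.39 CPM in the controls and 53.3 and 68.2 CPM in the treated libraries. Mmp9, a gelatinase, was at 11.2 and 20.8 CPM in control against 93.4 and 147 CPM with LTα1β2. Their log2 folds were similar at the 2 times, 2.75 and 2.74 for Serpina3g and 2.95 and 2.76 for Mmp9. Cebpd and Fabp4 were named from the list of C/EBP and adipocyte genes and Mgst1 from that of antioxidant genes, not as members of the 15 highest. Cebpd, a transcription factor of acute inflammation and early fat cell formation, was at 57.6 and 36.5 CPM without LTα1β2 and 110.3 and 94.4 CPM with it. Fabp4, a fatty acid carrier of fat cells and macrophages, was at 1.94 and 1.45 CPM in the controls and 2.402 and 6.69 CPM in the treated libraries, with few reads. Mgst1, a membrane glutathione transferase gene, was at 1.25 and 0.916 CPM in control against 3.27 and 5.37 CPM with LTα1β2. Its treated 48 h library was the highest of 4, as for Fabp4. On the lower side Mest, an imprinted gene, was at 34.7 and 41.1 CPM without LTα1β2 and 13.7 and 9.95 CPM with it. Cyp26b1, which clears retinoic acid, was at 159.8 and 155 CPM in the controls and 51.7 and 46.1 CPM in the treated libraries, nearly as low at 24 h as at 48 h. Lrrc17, a secreted protein gene of osteoblasts, was at 6.69 and 9.85 CPM in control against 3.74 and 2.73 CPM with LTα1β2. S100b, a calcium-binding protein gene, was at 7.88 and 12.4 CPM without LTα1β2 and 3.94 and 4.58 CPM with it. Both treated libraries lay below both controls in these 4. Ntrk3, Shank1, Thsd4 and Adamtsl3, among the 15 lowest as measured, have long transcripts. Their log2 folds of -1.54, -1.56, -1.56 and -1.43 became -1.15, -1.19, -1.23 and -1.12 against genes of like length.

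The 24 h pair, which shares no library with the 48 h pair, had fewer genes past 2-fold, 42 higher (0.345%) and 22 lower (0.181%). Of the 161 genes at least 2-fold above genes of like length at 48 h, 28 were at least 2-fold higher at 24 h and 62 had a 24 h log2 fold within 0.25 of 0. Of the 66 below, 11 were at least 2-fold lower at 24 h and 16 within 0.25 of 0. The median 24 h log2 fold of all tested genes was 0.02. Their share within 0.25 of 0 was not counted, so 62 and 16 are not read as a trait of these genes. The difference between the times was not tested, since each has 1 library a side. Some non-coding RNAs were also higher in the treated 48 h library. Bc1, a short RNA best known from neurons, was at 8.31 and 10.3 CPM in the controls and 10.1 and 49.1 CPM in the treated libraries. mt-Rnr2, the large mitochondrial ribosomal RNA, picked after its values were seen, was at 1008 and 1313 CPM in control against 1201 and 2648 CPM with LTα1β2. The mitochondrially encoded genes together took 3.11 to 3.45% of CPM in the 4 libraries. Of 251 tested pseudogenes 22 (8.76%) were at least 2-fold higher and 0 lower, with a length-adjusted median of -0.02.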

How the data were processed

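RNA-seq of 4 libraries of 3T3 cells was used, 1 each of control and LTα1β2 at 24 h and 48 h. Per the labels' protocols, total RNA was taken with RNAiso Plus and made into directional NEBNext libraries from 1 µg of RNA, read as 150 bp pairs. The authors deposited 1 table of CPM values per gene, read counts scaled to a common library size. edgeR 3.30.0 is named in the submitters' processing notes. The aligner was not given in the sources used here, nor the genome build, nor whether counting used strand.

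The log2 ratio of (CPM + 1) was taken for 12160 genes with a mean of at least 1 CPM. The values are whole multiples of a library's value of 1 read, so reads per gene could be restored for exact Clopper-Pearson 95% intervals of the CPM ratio, which cover counting error only. There is no replicate, no p-value and no count model. Length and GC content are those of the gene's longest GENCODE M21 transcript, with 12205 of 12208 gene identifiers matched. A gene list was called higher or lower with at least 3 tested genes and a length-adjusted median of 0.25 or more, or of -0.25 or less. The length adjustment and the counting intervals were tried on simulated reads. Their length trend was set on the same longest transcript that the adjustment uses. The simulation therefore does not test whether that transcript is the one expressed.

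The genes compared, the gene lists and the cell type markers were chosen with earlier results of these data known. The text names Ltbr, Nfkb2, Relb, the markers, the 15 highest and 15 lowest genes by either log2 fold (gene models with uninformative symbols left out), up to 4 genes of each list with the largest length-adjusted value in either direction, and any member 2-fold against its list. Not every gene that meets this rule is reported here. Alternatives covered the pseudocount, the filter, the scaling and the length measure, and, chosen after seeing the data, the reference control, the principal transcript, protein-coding genes alone and GC content. Python 3.11.15, numpy 2.4.6, pandas 2.3.3, scipy 1.17.1 and matplotlib 3.10.9 were used.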

Additional observations from a re-analysis of the deposited data

Results flagged for a closer look

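In 7 of the genes named by rule the treated library lay on opposite sides of its control at the 2 times, with counting intervals on both sides that leave out a ratio of 1. Treatment over control at 48 h was 1.56 for Atp6v0e, a small V-ATPase subunit, against 0.914 at 24 h. It was 1.607 for the myosin light chain gene Myl6, against 0.897. It was 0.714 for Slc7a5, a transporter of large neutral amino acids, against 1.128, and 0.816 for the tubulin gene Tubb6, against 1.131. The complex I genes of the mitochondrial genome had 0.743 for mt-Nd2 (1.06 at 24 h), 0.775 for mt-Nd4 (1.037) and 0.744 for mt-Nd5 (1.054). The TNF receptor superfamily list had a length-adjusted median of -0.23 at 48 h and 0.34 at 24 h. As measured its 48 h median was 0.04. Under the 14 alternatives the length-adjusted 48 h median ran from -0.24 to 0.19, so its sign depended on the setting. The difference between the times was not tested, since there is 1 library a side at each.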

How the results depend on the processing

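With 1 library a side no replicate could be left out, and depth limits the low genes. Of the 16 higher lists 13, and of the 10 lower lists 6, kept their side of 0.25 under all 14 alternatives. Respiratory chain, constitutive proteasome and mitochondrial ribosome lost it under 5 each, cholesterol synthesis under 7, contractile genes and laminins and integrins under 3 each, and fatty acid synthesis under 1. The cholesterol synthesis median turned to 0.01 (0.0103 before rounding) against the 24 h control. That control gave 157 lower genes in place of 87, and 114 in place of 66 against genes of like length. A pseudocount of 0.25 gave 156 and 136 lower genes by the same measures. A pseudocount of 5 gave 126 higher and 28 lower, and 92 and 16 against genes of like length. A filter of 5 CPM left 42 lower than genes of like length. The cause was not tested. Median-of-ratios scaling gave 312 higher and 61 lower, so the share of higher calls went from 72.2% to 83.6%. With GC content also removed 134 genes were higher and 63 lower than genes of like length, 123 and 53 of them shared. Of 7198 values of single genes 6550 stayed within their counting interval and 648 did not. Among values of at least 2-fold in either direction as reported, 0 changed sign. Sign changes of smaller values were not counted. No paired analysis was possible because the groups compared have 1 library each and share no replicate numbers. A fit over both times with time as a block, which asks for a difference common to 24 h and 48 h, was not run.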
